A study of Mus musculus with 2 samples.

Results

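Neutrophil, mast cell and eosinophil genes were examined as a set of 32 genes, taken by symbol from a deposited table of 44166 genes, and all 32 were found there once. They were measured by RNA sequencing of whole skin from C57BL/6 mice aged 3 days, in 1 library of RNF31fl/fl-K14-cre skin (KO) and 1 library of wildtype skin (WT). In the KO genotype, loxP-flanked Rnf31, whose product HOIP joins ubiquitin into linear chains, is the target of a Cre recombinase under the keratin 14 promoter. That promoter is active in basal keratinocytes, so white blood cells are not among the cells known to make this Cre. Sequencing gave 20511407 reads for the library labelled KO (93.59% aligned) and 19619928 for the library labelled WT (92.56% aligned). How many animals stand behind each library is not known from the labels. With 1 library per genotype, no difference has a replicate check and no p-value between genotypes was computed; intervals on ratios, given in brackets, are 95% intervals for counting error alone. Rnf31 itself was at 5.40 FPKM (fragments per kilobase of transcript, scaled to the fragments of the library) in the library labelled KO, against 3.95 FPKM in the library labelled WT (ratio 1.36, 1.18 to 1.59). It was thus not lower under the label that names the deletion, and the genotypes are written as labels throughout. That FPKM covers the whole gene and every cell type of the skin, and does not resolve the floxed part.

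Neutrophils, mast cells, eosinophils and basophils store enzymes and toxic proteins in granules. Neutrophils are short-lived blood cells that enter skin on injury or infection; their azurophil granule genes are transcribed early, in bone marrow precursors, and their specific granule genes somewhat later, whereas many receptor genes are transcribed in mature cells. Mast cells live in the skin, and the connective tissue type found there makes chymases, tryptase and carboxypeptidase A, while a mucosal type makes another set of chymases. The transcription factors GATA1 and GATA2 act in the development of mast cells, eosinophils and basophils, and C/EBP epsilon is needed for specific granule genes of neutrophils. In whole tissue, a different number of cells of a type and a different amount of RNA per cell cannot be told apart.

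Promoter sequences, running from 250 bases before to 50 bases after the start of transcription in RefSeq (GRCm38.p6), were matched for 28 of the 32 genes; Trem3, Tpsb2, Tpsab1 and Prg2 had no entry. The first 3 below are shown because Mcpt4 and Mcpt1 are close copies with levels far apart and because Cpa3 is a mast cell gene with little difference between the libraries; capitals mark GATAA on either strand, letters that GATA factors bind. Mcpt4 is on the minus strand at chr14:56062261-56062560, Mcpt1 on the plus strand at chr14:56017714-56018013 and Cpa3 on the minus strand at chr3:20242132-20242431.
Mcpt4: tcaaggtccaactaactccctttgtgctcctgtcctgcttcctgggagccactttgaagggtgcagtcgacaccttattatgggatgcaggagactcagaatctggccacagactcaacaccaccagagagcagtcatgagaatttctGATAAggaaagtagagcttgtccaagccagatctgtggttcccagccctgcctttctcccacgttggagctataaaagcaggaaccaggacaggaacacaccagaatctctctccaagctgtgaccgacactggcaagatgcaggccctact
Mcpt1: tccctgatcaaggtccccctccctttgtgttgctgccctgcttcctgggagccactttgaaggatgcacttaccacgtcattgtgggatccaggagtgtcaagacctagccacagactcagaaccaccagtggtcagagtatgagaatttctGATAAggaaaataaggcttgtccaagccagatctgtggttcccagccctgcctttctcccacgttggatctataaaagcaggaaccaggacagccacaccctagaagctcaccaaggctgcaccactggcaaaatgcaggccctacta
Cpa3: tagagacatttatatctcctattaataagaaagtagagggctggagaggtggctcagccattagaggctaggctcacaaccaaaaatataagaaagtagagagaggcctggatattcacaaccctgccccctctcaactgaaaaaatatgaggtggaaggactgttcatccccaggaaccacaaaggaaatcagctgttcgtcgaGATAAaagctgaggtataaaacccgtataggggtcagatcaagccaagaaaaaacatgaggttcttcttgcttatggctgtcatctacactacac

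The other 3 are shown as the TTGCNNAA carriers among 6 neutrophil genes that were at or near 0 in the library labelled WT and above 1 FPKM in the library labelled KO; the promoters of Fpr1, Fpr2 and Cd177, which fit the same description, do not hold these letters. Capitals mark TTGCNNAA on either strand, letters that C/EBP factors bind. Retnlg is on the plus strand at chr16:48872358-48872657, Ngp on the plus strand at chr9:110419558-110419857 and Ltf on the plus strand at chr9:111019042-111019341.
Retnlg: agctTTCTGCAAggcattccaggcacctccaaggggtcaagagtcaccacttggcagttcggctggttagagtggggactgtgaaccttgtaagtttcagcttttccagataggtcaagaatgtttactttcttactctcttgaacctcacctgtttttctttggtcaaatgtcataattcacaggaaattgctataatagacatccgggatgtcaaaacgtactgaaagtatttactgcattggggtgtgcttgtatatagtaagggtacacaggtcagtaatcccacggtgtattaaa
Ngp: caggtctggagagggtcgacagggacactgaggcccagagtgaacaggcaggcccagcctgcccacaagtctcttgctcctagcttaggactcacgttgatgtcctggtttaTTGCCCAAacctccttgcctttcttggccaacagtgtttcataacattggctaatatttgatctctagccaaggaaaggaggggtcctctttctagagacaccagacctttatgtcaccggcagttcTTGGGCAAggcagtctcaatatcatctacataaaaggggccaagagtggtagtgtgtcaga
Ltf: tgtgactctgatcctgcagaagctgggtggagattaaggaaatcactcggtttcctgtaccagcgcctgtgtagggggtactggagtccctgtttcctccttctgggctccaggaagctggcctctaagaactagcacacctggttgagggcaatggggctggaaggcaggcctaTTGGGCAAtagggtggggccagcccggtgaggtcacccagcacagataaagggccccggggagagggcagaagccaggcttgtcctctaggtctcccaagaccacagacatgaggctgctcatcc

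The letters GATAA were found in 5 of the 6 mast cell promoters (Cpa3, Mcpt1, Mcpt4, Cma1 and Fcer1a, not Hdc), in 3 of 4 eosinophil promoters (Siglecf, Prg3 and Ear2), in 2 of 15 neutrophil promoters (Ltf and Fpr2), in 10 of all 28 (35.7%) and in 25.4% of the 32851 promoters of the table. TTGCNNAA was found in 4 of 15 neutrophil promoters (Ltf, Ngp, Ly6g and Retnlg), in 1 of 6 mast cell promoters (Fcer1a), in 1 of 4 eosinophil promoters (Ear2) and in 10.8% of the table. CACGTG and TGACTCA were each found in 1 of the 28 promoters, both times that of Padi4, and in 7.15% and 5.2% of the table. The motifs were searched on both strands, none contains another, and a match describes letters, not a bound site. The Mcpt4 and Mcpt1 promoters had 249 identical and 42 mismatched aligned positions (85.6% identity), and GATAA began 102 bases before the start in Mcpt4 and 98 bases before it in Mcpt1. Ly6g, which carries TTGCNNAA as Ngp and Retnlg do, was listed at 0 in both libraries.

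A 2-fold rule, a difference of at least 1 on the log2(FPKM + 1) scale, put 8 of the 32 genes higher in the library labelled KO. It put 0 lower. Of the 14541 genes with at least 1 FPKM in either library, 7.59% were higher and 4.09% lower by the same rule, and of all 44166 genes 2.5% and 1.35%. When the libraries were scaled on all but the top 50 genes by FPKM, 6.54% of 14573 genes were higher and 5.49% lower, and when both were scaled to the same sum, 7.06% and 6.73% of 15414. The 8 were 6 neutrophil genes (Retnlg, Ngp, Fpr2, Ltf, Fpr1 and Cd177) and 2 mast cell genes (Tpsab1 and Hdc). The median log2 difference over all 32 genes was 0.51, against 0.00 over the whole table and -0.08 over the 14541 genes. Only 17 of the 32 reached 1 FPKM in either library, and 8 of these did so through the library labelled KO alone. Ratios of FPKM without a pseudocount are given for those 17, of which 9 were at least 2-fold higher, with Mcpt8 added to the 8, and 0 were lower; the shares over the 14541 genes were 10.6% and 7.99%. Just outside that floor was Trem1, at 0.855 FPKM in the library labelled KO, and just inside it was Mcpt8, at 1.25 FPKM.

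**Figure D1:**
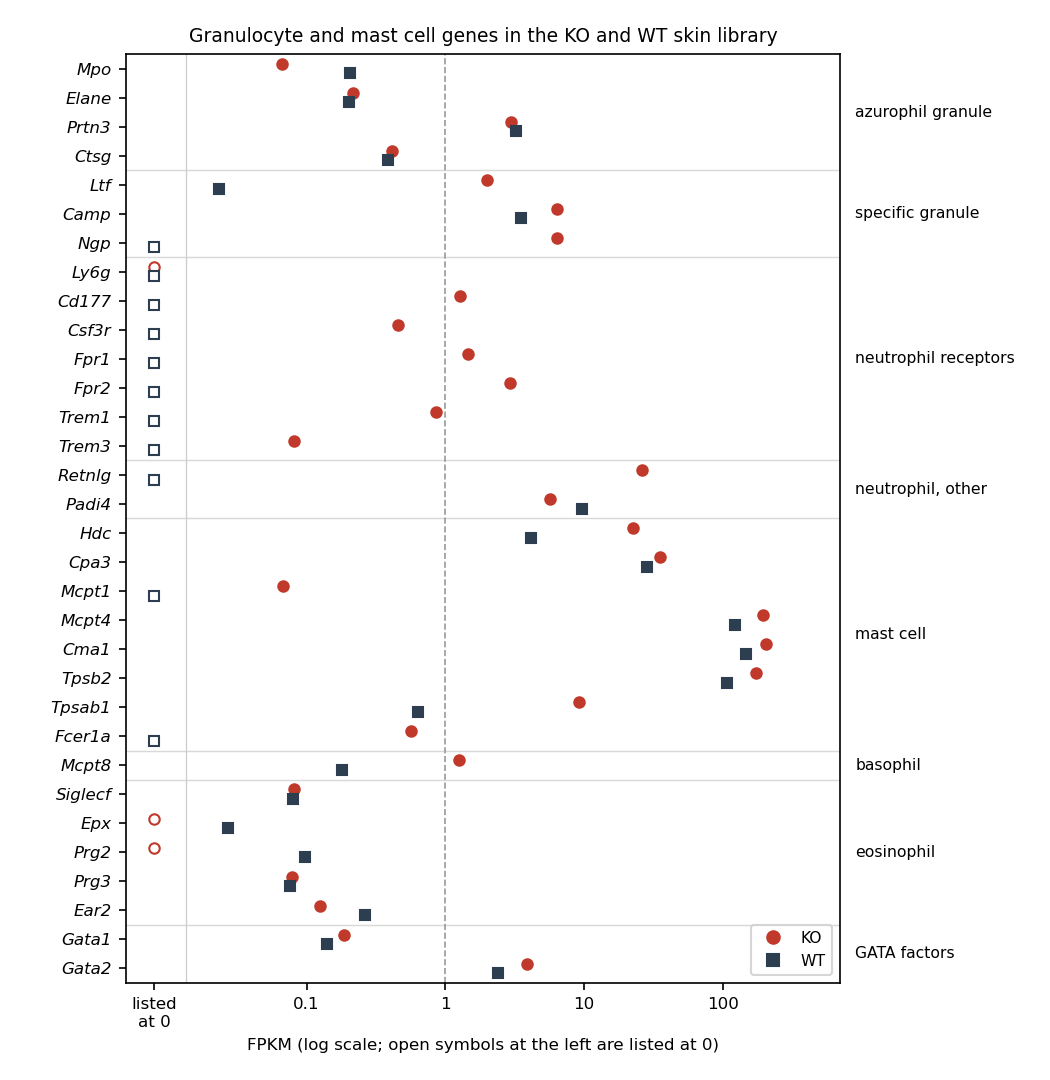
FPKM of each of the 32 genes on a log axis, grouped by role, with circles for the library labelled KO and squares for the library labelled WT; open symbols at the left are genes listed at 0, and the dashed line is 1 FPKM. The chymase and tryptase genes Cma1, Mcpt4 and Tpsb2 lie furthest to the right in both libraries, at 107 to 207 FPKM, all 7 neutrophil receptor genes are open squares for the library labelled WT, and the 5 eosinophil genes lie under 1 FPKM in both.

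Among the 16 neutrophil genes, those higher by the 2-fold rule in the library labelled KO were 2 of 3 specific granule genes, 3 of 7 receptor genes and Retnlg. Of the 4 azurophil granule genes, 0 were higher. A gene under 1 FPKM in both libraries cannot meet this rule, which applies to Mpo, Elane and Ctsg and to 4 of the 7 receptor genes. The counts of these classes are therefore not directly comparable. The share higher was 7.59% over the 14541 genes and 2.5% over all genes. The largest difference of the 32 was in Retnlg (ENSMUSG00000022651, chromosome 16, 48872621 to 48874496 in GRCm38), which encodes resistin-like gamma, a secreted protein of mouse neutrophils. Retnlg was at 26.2 FPKM in the library labelled KO, from about 133 estimated fragments, and had a listed FPKM of 0 in the library labelled WT. Of the 16, 8 had a listed FPKM of 0 in the library labelled WT alone. An exact 0 in such a table can be a failed estimate, so no fold is given for those 8. Over all 44166 genes, 22709 were at 0 for KO and 23007 for WT. Most of these, 20983 genes, were at 0 in both, so a 0 in the library labelled WT alone was much rarer. The median log2 difference of the 16 was 0.62, and their summed FPKM was 57.4 in the library labelled KO, against 17.2 in the library labelled WT. A few genes made up much of these sums. Retnlg gave 26.2 FPKM in the library labelled KO, and Padi4, Camp and Prtn3 gave 9.64, 3.53 and 3.22 FPKM in the library labelled WT.

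The 3 specific granule genes had higher levels in the library labelled KO, by different amounts. Ngp, the gene of neutrophilic granule protein, was at 6.37 FPKM in the library labelled KO and listed at 0 in the library labelled WT. Ltf, which encodes the iron-binding protein lactoferrin, was at 1.99 FPKM in the library labelled KO, against 0.0235 FPKM in the library labelled WT. The WT value of Ltf corresponds to about 1 fragment, so its ratio of 84.9 has a 95% counting interval of 14.8 to 3392. Camp, the gene of the cathelicidin antimicrobial peptide, which keratinocytes also make, was at 6.38 FPKM in the library labelled KO, against 3.53 FPKM in the library labelled WT (ratio 1.81, 1.13 to 2.94). Camp was thus the one granule gene of the 3 with a clear level in both libraries, and it stayed inside the 2-fold rule. Camp, Ngp and Ltf lie on chromosome 9 within 1195 kb of one another, among 31 protein-coding genes, so they are not direct neighbours.

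All 7 receptor and surface genes of neutrophils had a listed FPKM of 0 in the library labelled WT. In the library labelled KO 6 of them had a level above 0. Fpr2 and Fpr1, receptors for formylated bacterial peptides, were at 2.92 and 1.47 FPKM in the library labelled KO, and both had a listed FPKM of 0 in the library labelled WT. Cd177, a surface glycoprotein of neutrophils, was at 1.27 FPKM, Trem1, which amplifies inflammatory signals, at 0.855 FPKM, and Csf3r, the receptor of granulocyte colony-stimulating factor, at 0.457 FPKM in the library labelled KO, each listed at 0 in the library labelled WT. These 5 genes rest on 25 to 53 estimated fragments in the library labelled KO. Trem3, a neighbour of Trem1 on chromosome 17, was at 0.0814 FPKM, about 1 fragment, in the library labelled KO and listed at 0 in the library labelled WT. Ly6g, the surface protein most used to identify mouse neutrophils, was listed at 0 in both libraries. Of the stretches of 50 bases in the longest Fpr2 transcript, 37.2% also occur in transcripts of other genes, so its reads may be split, against 0.0784% for Fpr1 and 0.448% for Ly6g; for Csf3r the share was 11.2%.

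The 4 azurophil granule genes had a median log2 difference of -0.03. Mpo, the gene of myeloperoxidase, was at 0.067 FPKM in the library labelled KO, against 0.207 FPKM in the library labelled WT (about 3 and 8 fragments). Elane, the gene of neutrophil elastase, was at 0.215 FPKM in the library labelled KO, against 0.204 FPKM in the library labelled WT, and Ctsg, the gene of cathepsin G, was at 0.411 FPKM, against 0.389 FPKM. At 2 to 8 fragments per library, differences of these 3 genes were not detectable at this depth. Prtn3, the gene of proteinase 3, was at 3.0 FPKM in the library labelled KO, against 3.22 FPKM in the library labelled WT (ratio 0.932, 0.583 to 1.49), a difference within counting error. Prtn3 shares 159 exon bases with Plppr3 on the opposite strand (3.83 FPKM in the library labelled KO and 7.48 FPKM in the library labelled WT), and the sources used here do not say whether strand was used in counting, so its level is uncertain. Padi4, an enzyme that converts arginine to citrulline in histones when neutrophils release chromatin, had the most negative log2 difference of the 17 genes above the floor, at 5.7 FPKM in the library labelled KO, against 9.64 FPKM in the library labelled WT (ratio 0.592, 0.507 to 0.691). Padi4 was one of 3 neutrophil genes above 1 FPKM in the library labelled WT, with Camp and Prtn3. The part of cells other than neutrophils in the level of Padi4 was not tested.

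Of 30 further genes of neutrophils, outside the 32, 18 were higher and 1 was lower by the 2-fold rule, beside 7.59% and 4.09% of the 14541 genes. Their median log2 difference was 1.5. Some of the 18 also had clear levels in the library labelled WT. Hp, Lrg1 and Alox5ap were at 102, 21.5 and 13.3 FPKM there, against 491, 74.9 and 41.6 FPKM in the library labelled KO. The part of skin cells other than neutrophils in the 18 was not tested. Mmp8 and Mmp9, proteases of later neutrophil granules, were at 1.52 and 5.67 FPKM in the library labelled KO, against 0.0279 and 0.0687 FPKM in the library labelled WT. Itgam, the integrin CD11b of myeloid cells, was at 2.93 FPKM in the library labelled KO, against 0.331 FPKM in the library labelled WT (ratio 8.85, 5.8 to 14.1). The chemokine receptor gene Cxcr2 was under the floor, at 0.617 FPKM in the library labelled KO and 0.0626 FPKM in the library labelled WT, and Cebpe, which encodes C/EBP epsilon, was at 0.0577 FPKM, about 1 fragment, in the library labelled KO and listed at 0 in the library labelled WT. The gene that was lower is Wfdc21, at 47.8 FPKM in the library labelled KO, against 107 FPKM in the library labelled WT. S100a8 and S100a9, which activated keratinocytes also make, were at 2149.8 and 2489.5 FPKM in the library labelled KO, against 11.2 and 4.88 FPKM in the library labelled WT. The 7 keratinocyte markers summed to 27356 FPKM in the library labelled KO, against 3053 FPKM in the library labelled WT, with 5 higher and 1 lower, and their part in these values was not tested.

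Among 16 attractants and growth factors of neutrophils, 5 were higher by the 2-fold rule and 0 lower, beside 7.59% and 4.09% of the 14541 genes. Saa3, an acute-phase protein gene, was at 192 FPKM in the library labelled KO, against 0.169 FPKM in the library labelled WT. The chemokine genes Cxcl2 and Cxcl3 were at 10.7 and 5.01 FPKM in the library labelled KO and listed at 0 in the library labelled WT. Csf3, the growth factor that acts on the Csf3r receptor, was at 0.283 FPKM, about 5 fragments, in the library labelled KO and listed at 0 in the library labelled WT. Il17a, Il17f and Csf2, further cytokines that act on neutrophils, were listed at 0 in both. Of 9 inhibitors of serine proteases 5 were higher and 0 lower, beside the same shares. Slpi, which blocks neutrophil elastase and cathepsin G, was at 181 FPKM in the library labelled KO, against 2.05 FPKM in the library labelled WT, while the elastase and cathepsin G genes themselves stayed under 0.5 FPKM.

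Mast cell genes were the most abundant of the 32 in both libraries. Cma1, a chymase gene of connective tissue mast cells, was at 207 FPKM in the library labelled KO, against 147 FPKM in the library labelled WT (ratio 1.41, 1.33 to 1.49). Mcpt4, another chymase gene of these cells, was at 196 FPKM in the library labelled KO, against 123 FPKM in the library labelled WT (ratio 1.59, 1.5 to 1.69). Tpsb2, the gene of their main tryptase, was at 174 FPKM in the library labelled KO, against 107 FPKM in the library labelled WT (ratio 1.63, 1.54 to 1.73). Cpa3, which encodes mast cell carboxypeptidase A, was at 35.5 FPKM in the library labelled KO, against 28.3 FPKM in the library labelled WT (ratio 1.26, 1.12 to 1.41). All 4 were inside the 2-fold rule, and counting intervals alone put all 4 ratios above equality. They also put the ratios of Cpa3 and Cma1 under those of Mcpt4 and Tpsb2, though Cma1 only narrowly under Mcpt4. In the order of levels, Cma1, Mcpt4, Tpsb2 and Cpa3 led both libraries; Retnlg and Hdc came next in the library labelled KO, where they did not differ beyond counting error, and Padi4 and Hdc in the library labelled WT. Summed, the 4 were at 612 FPKM in the library labelled KO, against 405 FPKM in the library labelled WT (ratio 1.51), which is 94.99% and 98.8% of the FPKM of the 8 mast cell genes. In the library labelled KO, Cma1 and Mcpt4 did not differ in level beyond counting error, whereas in the library labelled WT each of the 4 stood apart from the next.

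**Figure D2:**
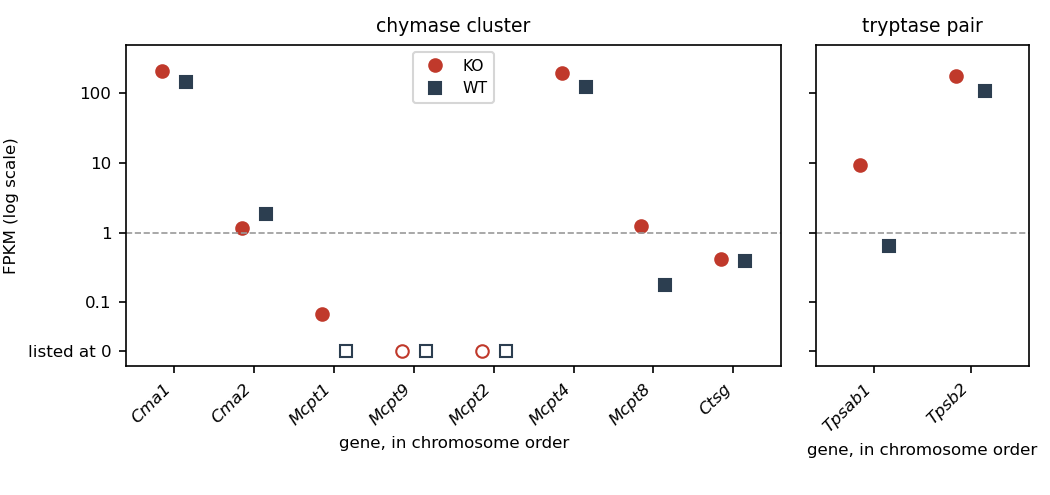
FPKM on a log axis of the protein-coding genes of the chymase cluster on chromosome 14 (left) and the tryptase pair on chromosome 17 (right), in chromosome order, with circles for the library labelled KO, squares for the library labelled WT and open symbols for genes listed at 0. Within the chymase cluster Cma1 and Mcpt4 lie at 123 to 207 FPKM and the other 6 genes under 2 FPKM, and in the tryptase pair Tpsab1 lies under Tpsb2 in both libraries and differs more between them.

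Hdc and Tpsab1 differed far more than the 4 abundant genes. Hdc, the enzyme that makes histamine, which basophils and neutrophils also make, was at 22.5 FPKM in the library labelled KO, against 4.16 FPKM in the library labelled WT (ratio 5.4, 4.76 to 6.15). Tpsab1, the gene of a second tryptase, whose protein C57BL/6 mice are known to lack, was at 9.2 FPKM in the library labelled KO, against 0.64 FPKM in the library labelled WT (ratio 14.4, 8.92 to 24.6). The counting intervals of both ratios lie above those of the 4 abundant genes. Hdc made up 3.49% of the mast cell sum in the library labelled KO, against 1.02% in the library labelled WT, and Tpsab1 1.43%, against 0.156%. Tpsab1 and Tpsb2 lie within 25.9 kb on chromosome 17 (25343245 to 25369098), and their longest transcripts were identical at 71.4% of aligned positions and shared no stretch of 50 bases. Read length and the treatment of shared reads are not known from the sources used here.

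The chymase cluster on chromosome 14 (55941451 to 56102574) holds 5 of the 32 genes among 8 protein-coding genes, with levels that span a wide range. Mcpt1, a chymase gene of mucosal mast cells, was at 0.0679 FPKM, about 1 fragment, in the library labelled KO and listed at 0 in the library labelled WT, beside 2749 and 1750 estimated fragments of Mcpt4. The transcripts of Mcpt4 and Mcpt1 were identical at 85.6% of aligned positions and shared no stretch of 50 bases. Mcpt2, another mucosal chymase gene, and Mcpt9 were listed at 0 in both libraries, and Cma2 was at 1.17 FPKM in the library labelled KO and 1.82 FPKM in the library labelled WT. Mcpt4 shared 5.48% of its stretches of 50 bases with Cma2. Mcpt8, a protease gene of basophils, was at 1.25 FPKM in the library labelled KO, against 0.179 FPKM in the library labelled WT, about 14 and 2 fragments (ratio 6.98, 1.6 to 63.3). Fcer1a, the IgE-binding chain of the high-affinity IgE receptor of mast cells and basophils, was at 0.562 FPKM, about 7 fragments, in the library labelled KO and listed at 0 in the library labelled WT.

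Of 22 further mast cell genes 4 were higher by the 2-fold rule, 0 were lower, and the median log2 difference was 0.18, beside 7.59% and 4.09% of the 14541 genes. With pseudocounts of 0.1 or 0.5, without the top 50 genes in the scaling, or with the same sum, 1 of the 22 was lower. The count of 4 higher was 3 without the top 50 genes in the scaling or with a floor of 2 FPKM, and 5 with pseudocounts of 0.1 or 0.5. Hpgds, which makes prostaglandin D, was at 14.1 FPKM in the library labelled KO, against 1.07 FPKM in the library labelled WT (ratio 13.2, 10.2 to 17.3). Ms4a2 and Fcer1g, the partner chains of Fcer1a, were at 1.56 and 91.4 FPKM in the library labelled KO, against 0.278 and 32.7 FPKM in the library labelled WT, and Srgn, the core protein of granule proteoglycans, was at 32.1 FPKM, against 13.6 FPKM. Fcer1g and Srgn are expressed in many white blood cells. Kit, the growth factor receptor of mast cells, which melanocytes share, was at 8.11 FPKM in the library labelled KO, against 11.8 FPKM in the library labelled WT, and its ligand gene Kitl was at 3.95 FPKM, against 8.48 FPKM (ratio 0.465, 0.409 to 0.528). The 7 melanocyte markers were all lower by that rule, with a summed FPKM of 201 in the library labelled KO, against 644 in the library labelled WT, and their part in the value of Kit was not tested. Mrgprb2, a receptor of connective tissue mast cells, was at 1.33 FPKM in the library labelled KO, against 0.924 FPKM in the library labelled WT (ratio 1.44, 0.871 to 2.42), a difference within counting error.

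All 5 eosinophil genes were under 0.3 FPKM in both libraries. Prg3, of a major basic protein, and Siglecf, a surface lectin, were at 0.0791 and 0.0807 FPKM in the library labelled KO, against 0.0756 and 0.0793 FPKM in the library labelled WT. Ear2, a ribonuclease gene, was at 0.126 FPKM in the library labelled KO, against 0.263 FPKM in the library labelled WT, and 41.5% of its stretches of 50 bases occur in other genes. Epx, the peroxidase of eosinophil granules, and Prg2, the other major basic protein, had a listed FPKM of 0 in the library labelled KO, against 0.0272 and 0.0983 FPKM in the library labelled WT. The 5 genes rest on 0 to 3 fragments each, so no difference between the libraries was detectable at this depth. Their summed FPKM was 0.286 in the library labelled KO, against 0.543 in the library labelled WT.

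Of 20 further genes of eosinophils, basophils and their recruitment, 6 were higher by the 2-fold rule and 0 lower, beside the same 7.59% and 4.09%. The count of 6 was 3 when the scaling left out the top 50 genes. The largest differences among the 6 were in the cytokine genes Il33 and Tslp. They were at 57.8 and 16.7 FPKM in the library labelled KO, against 0.528 and 0.195 FPKM in the library labelled WT. The eosinophil-attracting chemokine gene Ccl11 was at 5.89 FPKM in the library labelled KO, against 0.862 FPKM in the library labelled WT (ratio 6.83, 3.7 to 13.8), and its receptor gene Ccr3 was at 1.03 FPKM in the library labelled KO and listed at 0 in the library labelled WT. Ccl24, another ligand of that receptor, was at 1.63 FPKM in the library labelled KO, against 3.37 FPKM in the library labelled WT (ratio 0.485, 0.298 to 0.775). The eosinophil growth factor gene Il5 and its receptor gene Il5ra were listed at 0 in both libraries. Csf2rb, the shared chain of the IL-3, IL-5 and GM-CSF receptors, was at 6.59 FPKM in the library labelled KO, against 2.59 FPKM in the library labelled WT (ratio 2.54, 2.15 to 3.01). The basophil genes Cd200r3 and Prss34 were at 0.997 and 0.831 FPKM in the library labelled KO, against 1.0 and 0.461 FPKM in the library labelled WT.

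The transcription factor genes were inside the 2-fold rule. Gata2 was at 3.91 FPKM in the library labelled KO, against 2.39 FPKM in the library labelled WT (ratio 1.64, 1.31 to 2.05). Gata1 was at 0.186 FPKM in the library labelled KO, against 0.141 FPKM in the library labelled WT, about 5 and 4 fragments, a difference not detectable at this depth. Gata2 is also expressed in endothelium, whose 7 markers summed to 60.0 FPKM in the library labelled KO, against 61.2 FPKM in the library labelled WT, with 0 past the 2-fold rule, and Gata1 in red cell precursors, whose 10 markers summed to 1018 FPKM, against 1723 FPKM, also with 0 past it and with Hemgn listed at 0 in the library labelled KO. Of those 10, 2 were lower past the rule without the top 50 genes in the scaling and with the same sum. None of 8 haematopoietic factor genes passed the rule. Among them, Spi1 (PU.1) was at 14.5 FPKM in the library labelled KO, against 8.6 FPKM in the library labelled WT, and Cebpa at 138 FPKM, against 148 FPKM. These are levels of whole skin, and the part of cells other than blood cells in them was not tested.

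Genes shared by many white blood cells and markers of macrophages and monocytes were counted too, and no list of lymphocyte markers was examined. Of 7 such shared genes, not all of which are expressed in every white blood cell, 5 were higher and 0 lower. Their summed FPKM was 163 in the library labelled KO, against 76.3 in the library labelled WT. Tyrobp gave the largest part of both sums, 83.43 FPKM in the library labelled KO and 44.99 FPKM in the library labelled WT. Ptprc (CD45) was at 1.88 FPKM in the library labelled KO, against 0.19 FPKM in the library labelled WT (ratio 9.92, 6.02 to 17.4). Of 12 macrophage and monocyte markers 9 were higher and 0 lower, beside the same shares. Their summed FPKM was 578 in the library labelled KO, against 236 in the library labelled WT. Formyl peptide receptors, Trem1 and Csf3r are also expressed by monocytes or macrophages, and the part of these cells in their values was not tested. Of 6 platelet markers 0 passed the rule, and Gp9 was listed at 0 in both libraries.

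**Figure D3:**
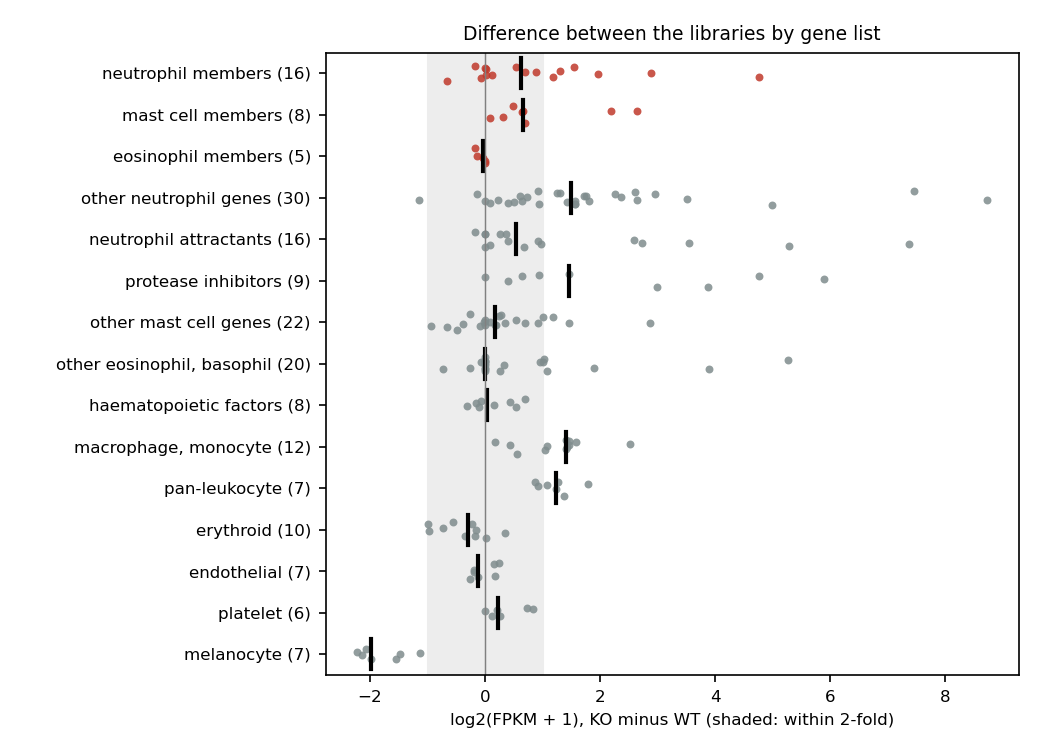
Difference in log2(FPKM + 1), library labelled KO minus library labelled WT, of each gene (points) by list, with the number of genes in brackets, the list median as a black bar and the 2-fold range shaded; red points are neutrophil, mast cell and eosinophil genes of the 32 (Mcpt8, Gata1, Gata2 and the keratinocyte markers are not drawn). The neutrophil genes spread from -0.67 to 4.77, 6 of the 8 mast cell genes lie inside the shaded range, and the 5 eosinophil genes lie close to 0.

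In the authors' deposited table, which gives a q-value for their own comparison of the 2 libraries, 18 of the 32 genes were tested and 4 were called, all higher in the library labelled KO. They are Retnlg, Ngp and Trem1, each with a q-value of 0.012 in the authors' deposited table, and Cd177, with 0.02. By the q-values of the authors' deposited table, 0.59% of 15589 tested genes were called higher and 0.0257% lower. Hdc had a q-value of 0.21 and Tpsab1 of 0.764 in the authors' deposited table. All 4 called genes were among those listed at 0 in the library labelled WT. That comparison has 1 library per genotype and says nothing of the spread between animals.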

How the data were processed

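RNA sequencing of skin from RNF31fl/fl-K14-cre (KO) and wildtype (WT) mice was analysed, 1 library each, grouped from the genotype labels. Tissue was ground and RNA taken with TRIzol for a directional library kit, per the labels. The submitters' processing notes name cutadapt 1.9.1, HISAT2 2.0.4, Cufflinks 2.2.1 and GRCm38; the annotation release is not stated there. The deposited table holds FPKM per gene, scaled by transcript length and depth by the authors and laid out in the columns of Cuffdiff, and their p-value and q-value per gene, per the file headers. A deposited sheet gives the count of reads and the fraction aligned, per the file headers.

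Differences are log2(FPKM + 1), KO minus WT, with a 2-fold rule; the pseudocount of 1 understates low genes. FPKM ratios are given where either value is at least 1. Fragments were estimated from FPKM, because the low values of genes with 1 transcript (800 bases or longer) fall close to multiples of a step after a length offset of 300 (KO) and 225 bases (WT): 79.4% of 1897 and 79.6% of 1836 values were within 0.25 of a whole number, where 50% would be by chance for a step and offset fixed beforehand. Step and offset were fitted to these same values, so the share by chance after fitting lies above 50%. Exact binomial (Clopper-Pearson) 95% intervals of ratios and exact Poisson intervals of levels rest on these estimates, use the longest transcript, and cover counting error at most, as the libraries carry no stated molecular identifiers. At this depth 1 FPKM over 2 kb is about 29.5 fragments (KO) and 28.6 (WT).

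Of 44166 identifiers, 43831 matched GENCODE release M21, the source of positions (1-based, GRCm38) and transcripts; promoters are from RefSeq. The 32 genes and 13 further lists were chosen with earlier results of these data known. All 32 genes are named. Of other lists the rule allowed genes past the 2-fold rule and up to 4 with the largest difference or highest FPKM; others (among them Cxcr2, Cebpe, Csf3, Il5, Il5ra, Mrgprb2, Kit and genes listed at 0) were chosen for their role after values were seen. Serine protease inhibitor Expi and Clc were not matched by symbol. The scripts were tested on simulated data with known answers. Alternatives were pseudocounts of 0.1 and 0.5, no floor, floors of 0.5 and 2, and 3 scalings. Python 3.11.15, pandas 2.3.3, numpy 2.4.6 and scipy 1.17.1 were used.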

Additional observations from a re-analysis of the deposited data

How the results depend on the processing

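Under the 8 alternatives the 8 genes past the 2-fold rule (Retnlg, Ngp, Ltf, Fpr1, Fpr2, Cd177, Hdc and Tpsab1) kept a log2 difference of at least 1, whatever the floor, and 0 of the 32 reached -1. A floor leaves the log2 difference of a gene unchanged, and a smaller pseudocount can only enlarge it. Only the 3 scalings could therefore have brought one of these 8 genes under 1. A floor of 2 FPKM leaves fewer genes tested, with 5 higher in all (5 by the plain ratio) and 3 among neutrophil genes. With no floor all 32 enter, with 14 higher and 4 lower by the plain ratio, and the median of genes above the floor was 0.51, against 0.93 with the floor of 1. That median was 2.27 with a pseudocount of 0.1, 1.37 with 0.5, 0.70 with the floor of 2 and 1.09 with both libraries scaled to the same sum. The whole-list median of the 32 was 0.70 with a pseudocount of 0.1, 0.40 without the 50 most abundant genes in the scaling and 0.41 with the same sum. With pseudocounts of 0.1 and 0.5 the neutrophil median was 1.67 and 0.85; the eosinophil median was -0.35 with 0.1, and the mast cell median 0.55 with the same sum. The median of all genes, -0.08 as reported, was -0.20 without the 50 most abundant genes (6.54% higher, 5.49% lower) and -0.21 with the same sum (7.06% higher, 6.73% lower), so small ratios such as that of Cpa3 (log2 difference 0.18 to 0.41 over the settings) depend on scaling in size. Scaling by the median of ratios gave 0.01 (8.59% higher, 3.45% lower). Without regard to the floor, the log2 difference of Trem1 and Mcpt8 reached 1 under 3 alternatives each, of Fcer1a under 2 and of Csf3r under 1; with the floor of 1 and a pseudocount of 0.1 or 0.5, 9 of the 32 were higher, Mcpt8 being the one added. With a pseudocount of 0.1, Mpo (-0.88) and Prg2 (-0.99), under the floor, lay below Padi4 (-0.75). A smaller pseudocount enlarges differences by construction. No paired analysis was possible because each genotype has 1 library. Depth limits the eosinophil, Mpo, Elane, Ctsg and Gata1 values, which rest on few fragments.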
